A study of Mus musculus with 16 samples.

Results

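The 31 genes described here encode the apolipoproteins, lipid transfer proteins, lipases and their inhibitors, receptors and sterol pumps through which the liver sends out and takes back lipid. They were taken by name from a list, and all 31 were found among 24970 genes of the count table. Messenger RNA was measured by poly(A) RNA-seq in snap-frozen livers of 16 mice. There were 4 mice in each group: humanized PXR-CAR-CYP3A4/3A7 mice given TCPOBOP, humanized PXR-CAR-CYP3A4/3A7 mice given vehicle, C57BL/6 Ntac (wild-type) mice given TCPOBOP and C57BL/6 Ntac mice given vehicle. TCPOBOP is a potent man-made ligand that switches on mouse CAR, the constitutive androstane receptor, a nuclear receptor of the hepatocyte. It was given at 3 mg/kg in 2 administrations 24 h apart, with 48 h of treatment in all, and the vehicle was 2% DMSO in corn oil. All 16 mice had thus been handled and dosed, and no undosed group was used here. The sources used here do not give age, sex, feeding or time of day. In every library Xist, the RNA of the inactive X, had 0 to 6 counts and the Y-linked Ddx3y had 204 to 1436 counts, the pattern of male tissue. The study asked what this mouse CAR ligand does to the liver of mice that carry human CAR.

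Hepatocytes load triglyceride onto apolipoprotein B and secrete it as very low density lipoprotein (VLDL). In the circulation, lipases strip the particles under the control of small exchangeable apolipoproteins, and the remnants return to the liver through receptors that bind apolipoprotein E. High density lipoprotein (HDL) carries cholesterol back to the liver, where SR-BI takes up its sterol and the ABCG5/ABCG8 pump moves sterol into bile.

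In wild-type liver TCPOBOP lowered 10 of the 31 genes and raised 1. Those that fell serve HDL uptake (Scarb1), sterol export into bile (Abcg5, Abcg8), remnant uptake (Lrp1), lipolysis and its control (Angptl4, Apoa5, Apoc2, Lipc), HDL cholesterol esterification (Lcat) and a phospholipid-binding apolipoprotein (Apoh). Mttp, which loads lipid onto apolipoprotein B, rose. The members called were 35.5% of the list, and 13.1% of all 12913 genes tested were called. The list was chosen with earlier results of these data known, so this contrast is a description and not independent of them. Of all genes, 4.99% were lower and 8.09% were higher. The TCPOBOP and vehicle groups did not overlap for 11 members that were lower and 1 that was higher, against 8.4% and 12.5% of all genes. The median log2 change was -0.51 over the members and -0.02 over all genes tested, and 25 of 31 members had a value below 0. Calls are Benjamini-Hochberg adjusted p under 0.05 from edgeR's quasi-likelihood test over all 12913 genes, and changes are log2 ± SE. With every library thinned to the depth of the shallowest, 1 member was higher and 11 were lower, or 38.7% against 12.3% of all genes. Leaving out wild-type TCPOBOP replicate 3 left 3 called members, or 9.68% of them against 8.64% of all genes. Leaving out replicate 4 left 4, or 12.9% against 8.19%, so that in these fits the members' share was near that of all genes. Leaving out wild-type vehicle replicate 3 left 7, or 22.6% against 9.97%.

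In humanized liver, TCPOBOP changed 1 member, Mttp, which rose, and 2.51% of all genes were called (1.32% higher and 1.19% lower). The groups did not overlap for 1 member that was higher and 1 that was lower, against 4.6% and 5.36% of all genes. At an unadjusted p under 0.05 there were 4 members. The share of all genes at that threshold was not counted, here or for the marker and gene lists below. Such counts therefore have no background beside them. Humanized TCPOBOP replicates 1 and 4 agreed poorly, with a correlation of log2 CPM of 0.9131. Without humanized TCPOBOP replicate 1, 3.23% of the members and 7.37% of all genes were called. Without that library and wild-type vehicle replicate 2, a fit added after seeing the data, these were 12.9% and 16.4%. Fewer calls than in wild-type liver therefore do not show a smaller response. The effect of TCPOBOP differed between the strains for Scarb1, Lrp1 and Lipc, where the humanized change exceeded the wild-type change. These were 9.68% of the members, near the 7.46% of all genes called in this interaction (3.48% higher and 3.98% lower). The Lipc call was lost in 19 of 26 alternative fits. Under TCPOBOP, humanized livers had 14 members higher and 2 lower than wild-type livers, against 24.6% of all genes called (11.8% higher and 12.8% lower). The strains did not overlap there for 10 members that were higher and 4 that were lower, against 11.7% and 15.7% of all genes. Under vehicle, 2 were higher and 3 lower, against 16.1% of all genes called (7.11% higher and 8.95% lower), the same share as among the members. Here 5 members were higher and 5 lower without overlap, against 14.4% and 12% of all genes. In all, 18 members were called in at least 1 of the 5 comparisons, 12 in 2 or more and 5 in 3 or more, and 13 in none. The same counts were not made over all genes, so they do not set the members apart from other genes. The comparisons share groups with each other, so their calls are not independent.

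**Figure D1:**
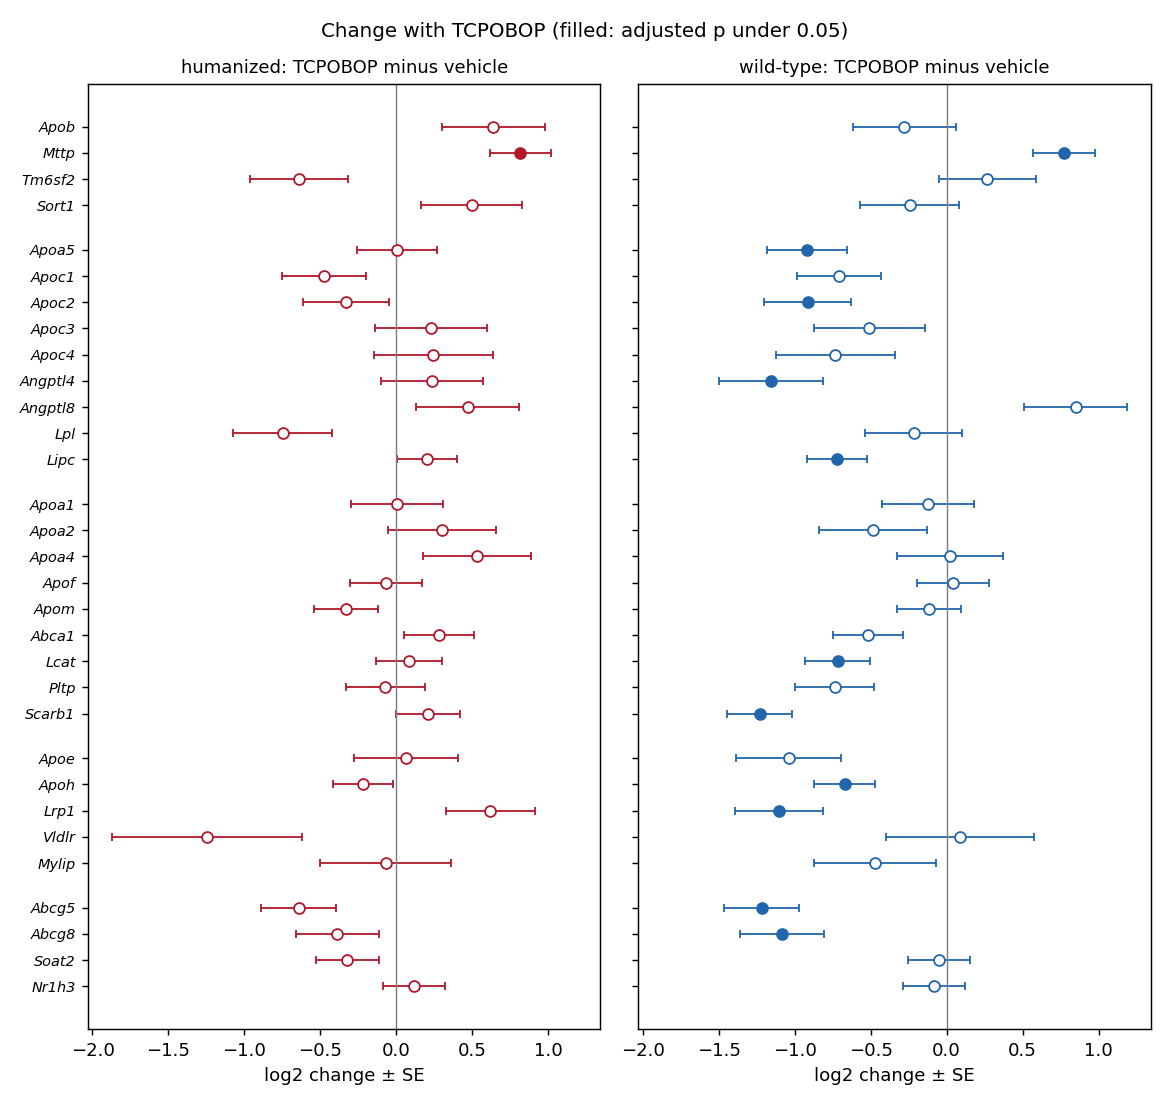
Log2 change with TCPOBOP ± SE for each of the 31 members, in humanized mice (left) and wild-type mice (right), with members grouped by role from VLDL assembly at the top to sterol export at the bottom. Filled points passed the test: 1 in humanized liver (Mttp) and 11 in wild-type liver, of which 10 lie below 0.

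The libraries held 11827994 to 37998473 counts, and the wild-type TCPOBOP group was the deepest (30228724 to 37998473). Cyp2b10, the classical CAR target, averaged 105 ± 64.4 CPM in humanized TCPOBOP and 17.4 ± 3.84 CPM in humanized vehicle livers, and 3200 ± 305 CPM in wild-type TCPOBOP and 48.2 ± 30.9 CPM in wild-type vehicle livers (SD, n = 4). Mouse Nr1i3, which encodes CAR, averaged 2.20 ± 0.49 CPM in humanized vehicle and 100.3 ± 7.32 CPM in wild-type vehicle livers. Albumin, a defining marker of hepatocytes, averaged 16880 to 49740 CPM in the 4 groups. Within a library, the deviation of a gene from its mean over all 16 libraries followed transcript length. Spearman's rho with length over 12064 genes was -0.42, -0.37, 0.30 and 0.35 in the humanized TCPOBOP libraries, -0.29 to -0.21 in humanized vehicle, 0.08 to 0.21 in wild-type TCPOBOP and 0.02 to 0.35 in wild-type vehicle libraries. Wild-type vehicle replicate 2 had a correlation of 0.58 with GC content, and humanized TCPOBOP replicate 1 had the lowest scaling factor (0.79). Strain differences are also given with these trends removed, or without these 2 libraries, where that ended a call or moved the value by over 1.5 times, and for some other members, and each count is given both ways. Both alternatives were added after seeing the data.

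Promoter sequences are shown for the members called in 3 or more comparisons that the RefSeq promoter table (GRCm38.p6) holds, which are Mttp, Lrp1, Lipc and Abcg5, so that the letters upstream of the genes the results turn on can be read beside their values. Scarb1 has no entry there. Each runs 5′ to 3′ on the strand of the gene and ends at the base before the start site, except for Abcg5 and Abcg8, which are transcribed away from each other. For this pair the 109 bases between the start sites are given on the plus strand. Capitals mark half-sites of the kind that CAR, PXR and LXR bind with their partner RXR (the consensus AGGTCA, or a variant spelled AGTTCA, a variant spelled GGGTCA or a variant spelled GGTTCA) and GATA boxes (spelled AGATAA, with the other form spelled TGATAA), on either strand. No match overlapped another.
Mttp, chr3:138143419-138143668, minus strand: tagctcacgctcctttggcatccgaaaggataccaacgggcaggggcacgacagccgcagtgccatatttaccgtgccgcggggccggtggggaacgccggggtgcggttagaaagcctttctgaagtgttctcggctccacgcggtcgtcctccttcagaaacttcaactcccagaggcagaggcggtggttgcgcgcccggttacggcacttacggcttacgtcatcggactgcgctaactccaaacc
Lrp1, chr10:127621149-127621398, minus strand: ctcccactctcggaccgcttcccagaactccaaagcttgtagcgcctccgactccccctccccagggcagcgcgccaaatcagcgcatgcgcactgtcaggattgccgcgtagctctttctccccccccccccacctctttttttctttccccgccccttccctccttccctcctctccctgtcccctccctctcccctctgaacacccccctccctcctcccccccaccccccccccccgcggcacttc
Lipc, chr9:70952222-70952471, minus strand: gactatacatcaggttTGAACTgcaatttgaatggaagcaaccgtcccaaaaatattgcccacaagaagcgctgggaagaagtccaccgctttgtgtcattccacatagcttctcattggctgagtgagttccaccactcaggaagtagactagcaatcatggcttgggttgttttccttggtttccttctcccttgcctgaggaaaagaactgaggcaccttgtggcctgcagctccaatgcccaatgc
Abcg5-Abcg8, chr17:84683012-84683120, plus strand: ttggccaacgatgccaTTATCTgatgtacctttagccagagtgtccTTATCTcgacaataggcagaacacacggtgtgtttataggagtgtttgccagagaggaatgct

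Of these 4 sequences, Lipc holds 1 half-site (AGTTCA on the minus strand of the printed sequence, 234 bases before the start), and the region between Abcg5 and Abcg8 holds 2 GATA boxes (AGATAA on its minus strand). Windows that are not printed hold more matches. The full 250 bases before this Abcg8 start, which reach into Abcg5, hold 1 half-site and 3 GATA boxes. The window of a second Lipc start holds 4 half-sites. Over all 32851 promoters of the table, 38.6% of 250-base windows hold at least 1 of the 4 half-sites, and 16.6% hold a GATA box. In windows of 109 bases, 18.5% hold a half-site, 6.8% a GATA box and 0.5% at least 2 GATA boxes. The GATA box was added to the search after the Abcg5-Abcg8 letters had been seen. Of the 22 members with a window, 14 hold a half-site in their first one. These matches describe letters and say nothing of which factor binds.

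Mttp encodes the microsomal triglyceride transfer protein, which lipidates apolipoprotein B in the endoplasmic reticulum. It was higher with TCPOBOP in both strains and lower in humanized than in wild-type livers under either treatment (NM_008642, chromosome 3, 138089855 to 138143418, minus strand, mm10 like all positions here). Mttp had 258, 245, 390.5 and 415 CPM in humanized TCPOBOP livers, against 165, 229, 169.5 and 180 CPM in humanized vehicle livers. The humanized groups did not overlap. In the wild-type strain it had 562, 570.2, 570 and 593 CPM in wild-type TCPOBOP livers, against 361, 245.5, 325.5 and 412 CPM in wild-type vehicle livers. All 4 wild-type TCPOBOP values lay within a narrow band above every other library in the study. The log2 change with TCPOBOP was 0.82 ± 0.20 (adjusted p = 0.0416) in humanized and 0.77 ± 0.20 (adjusted p = 0.0151) in wild-type livers, or 1.76-fold and 1.71-fold. The difference between these effects was 0.04 ± 0.28 (adjusted p = 0.962), a p that does not show the effects to be equal. Between strains the difference was -0.81 ± 0.20 (adjusted p = 0.00757) under TCPOBOP and -0.85 ± 0.20 (adjusted p = 0.0139) under vehicle. With length and GC trends removed these were -0.68, adjusted p = 0.001, and -0.69, adjusted p = 0.00399. The humanized call was lost when any 1 of 5 humanized or 5 wild-type libraries was left out: without humanized TCPOBOP replicate 4 it was 0.68, adjusted p = 0.123, and without humanized vehicle replicate 1 it was 0.76, adjusted p = 0.146. Without the 2 libraries that stood apart it was 0.93, adjusted p = 0.00387.

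The other 3 genes of VLDL assembly passed no test. Apob, the structural protein of VLDL, averaged 4194 ± 1922 CPM in humanized TCPOBOP and 2696 ± 579 CPM in humanized vehicle livers, and 3600 ± 328 CPM in wild-type TCPOBOP and 4361 ± 1600 CPM in wild-type vehicle livers (SD, n = 4). Its log2 change was 0.64 (adjusted p = 0.343) in humanized and -0.28 (adjusted p = 0.689) in wild-type livers. Apob has one of the longest transcripts of the list (13934 bases), and its humanized TCPOBOP values ran from 1687 CPM in replicate 1 to 5747 CPM in replicate 3, the libraries with the negative and positive length trends. Apob passed in humanized liver only without the 2 libraries that stood apart (0.91, adjusted p = 0.00929), and in no other alternative. That fit was added after seeing the data and called 16.4% of all genes. Tm6sf2, a membrane protein of VLDL lipidation, had log2 changes of -0.64 (adjusted p = 0.32) and 0.27 (adjusted p = 0.68) in humanized and wild-type livers. Under TCPOBOP the strains did not overlap for Tm6sf2, with a difference of -0.83 ± 0.32 (adjusted p = 0.0686) that missed the threshold. With length and GC trends removed, an alternative added after seeing the data, that difference was -0.92, adjusted p = 0.00828. Sort1, which encodes the sorting receptor sortilin, had 0.50 (adjusted p = 0.47) and -0.24 (adjusted p = 0.725).

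Scarb1 encodes SR-BI, the receptor through which hepatocytes take up HDL cholesterol, and in wild-type liver its fall was the largest on the log2 scale among the members (NM_016741, chromosome 5, 125277087 to 125341094, minus strand). Scarb1 had 109, 104, 87.1 and 73.1 CPM in wild-type TCPOBOP livers, against 195, 246, 246 and 189 CPM in wild-type vehicle livers. The wild-type groups did not overlap, and the change was -1.23 ± 0.21 (adjusted p = 0.000611), or 2.35-fold lower. In humanized mice it had 108, 232, 209.6 and 193 CPM in humanized TCPOBOP livers, against 146, 182, 141 and 174 CPM in humanized vehicle livers. Here 3 of the 4 TCPOBOP values lay above all vehicle values, and replicate 1 lay below them. The humanized change was 0.21 ± 0.21 (adjusted p = 0.658). The effects differed by 1.44 ± 0.30 (adjusted p = 0.00626). Under TCPOBOP humanized livers were higher by 0.99 ± 0.21 (adjusted p = 0.00271), with overlap only through humanized replicate 1, and under vehicle the strain difference was -0.45 ± 0.21 (adjusted p = 0.141). The wild-type, interaction and TCPOBOP calls of Scarb1 held in every alternative run, each left-out library included. The other accessions of Scarb1 held as little as 0.597 of the counts of the one used.

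Lcat, whose product esterifies HDL cholesterol, had 309, 333, 242 and 199 CPM in wild-type TCPOBOP livers, against 407, 643, 393 and 337 CPM in wild-type vehicle livers (NM_008490, chromosome 8, 105939551 to 105943402, minus strand). The wild-type groups did not overlap, and the log2 change of Lcat was -0.72 ± 0.22 (adjusted p = 0.0343). Without wild-type TCPOBOP replicate 4 the value was -0.59, adjusted p = 0.135, and leaving out vehicle replicate 2, the highest, gave -0.49, adjusted p = 0.0899. In all, 5 of 27 alternatives lost the call. In humanized mice Lcat had 460.1, 506, 394 and 345 CPM in humanized TCPOBOP livers, against 338, 438, 435 and 399.9 CPM in humanized vehicle livers, with overlap and a change of 0.08 ± 0.22 (adjusted p = 0.891). Under TCPOBOP, Lcat was higher in humanized than wild-type livers by 0.66 ± 0.22 (adjusted p = 0.0346), with no overlap, and without wild-type TCPOBOP replicate 4 by 0.53, adjusted p = 0.119, 1 of 6 alternatives of 27 in which the call was lost.

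Apoa1, the main HDL protein, passed in no comparison. It averaged 10410 ± 6410 CPM in humanized TCPOBOP, 10380 ± 1011 CPM in humanized vehicle, 6423 ± 595 CPM in wild-type TCPOBOP and 6978 ± 731 CPM in wild-type vehicle livers (SD, n = 4). Its log2 change with TCPOBOP was 0.00 (adjusted p = 0.999) in humanized and -0.12 (adjusted p = 0.866) in wild-type livers. Apoa2, the second HDL protein, had 16190, 8262, 4196 and 3294 CPM in humanized TCPOBOP livers, against 2647, 3292, 2506 and 2202 CPM in wild-type TCPOBOP livers. The strain groups did not overlap under TCPOBOP, with a difference of 1.59 ± 0.36 (adjusted p = 0.00438), and humanized replicate 1 was far above the rest. With length and GC trends removed the difference was 1.03, adjusted p = 0.000934, and without the 2 libraries that stood apart it was 1.01, adjusted p = 0.00871. Under vehicle Apoa2 had 7415, 5002, 6882 and 6642 CPM in humanized vehicle livers, against 3355, 4220, 3498 and 3805 CPM in wild-type vehicle livers, again without overlap, and a difference of 0.80 ± 0.36 (adjusted p = 0.121) that missed the threshold. The Apoa2 span overlaps that of Tomm40l on the opposite strand, and the labels do not say whether the counting used strand. Tomm40l fell in wild-type liver (-0.92, adjusted p = 0.00323) and did not differ past the threshold between strains under TCPOBOP (0.01, adjusted p = 0.974).

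Apoa4, an apolipoprotein of HDL and chylomicrons, was lower in humanized than wild-type livers under vehicle (NM_007468, chromosome 9, 46240844 to 46243458, plus strand). Apoa4 had 70.1, 181, 188.5 and 91.2 CPM in humanized vehicle livers, against 440.1, 503, 251.5 and 245 CPM in wild-type vehicle livers. The groups did not overlap, and the difference was -1.44 ± 0.36 (adjusted p = 0.0168), or 2.71-fold lower. With length and GC trends removed it was -1.57, adjusted p = 0.00431. Without humanized vehicle replicate 1, the lowest, it was -1.23, adjusted p = 0.0585, and without replicate 4 -1.30, adjusted p = 0.0566. Under TCPOBOP Apoa4 had 269, 176, 189 and 132 CPM in humanized TCPOBOP livers, against 217, 566, 298 and 381 CPM in wild-type TCPOBOP livers, and the difference of -0.93 ± 0.35 (adjusted p = 0.0623) missed the threshold. Apom, Apof, Pltp and Abca1 passed no test. For Abca1, the cholesterol exporter that starts HDL formation, the change was 0.28 (adjusted p = 0.571) in humanized and -0.52 (adjusted p = 0.163) in wild-type livers. For Pltp, which transfers phospholipid between particles, it was -0.07 (adjusted p = 0.926) and -0.74 (adjusted p = 0.0703). The Pltp span overlaps that of Ctsa, which fell in wild-type liver (-0.90, adjusted p = 0.00624).

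**Figure D2:**
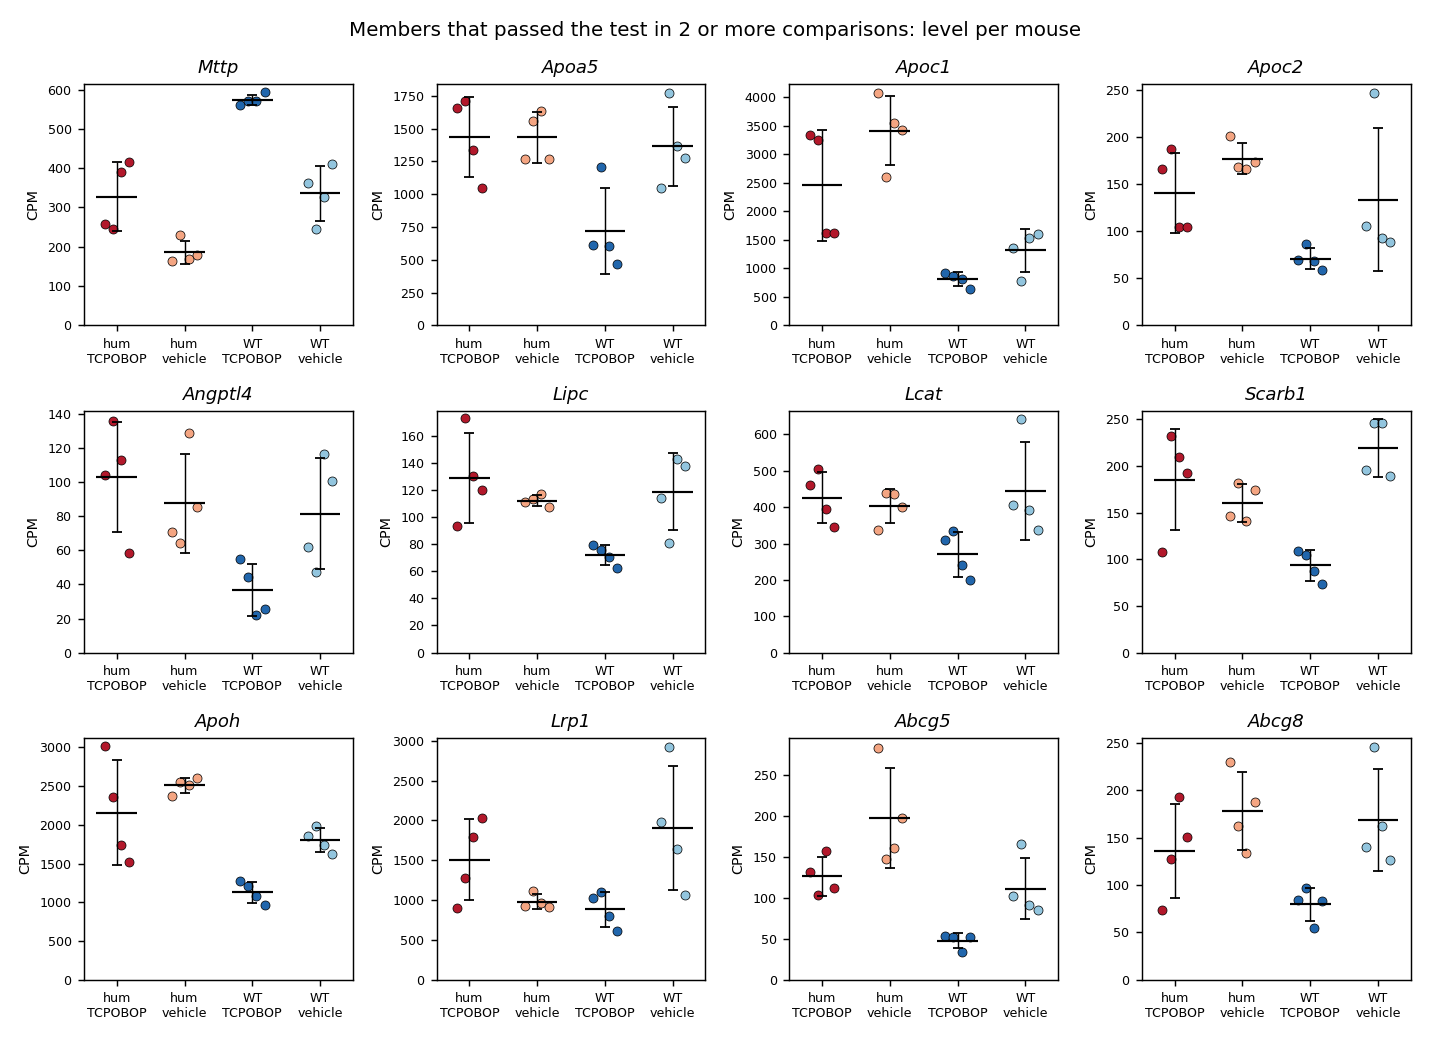
Level in CPM (counts scaled to library size with TMM factors) of the 12 members that passed in 2 or more comparisons, 1 point per mouse with the mean (bar) and SD, in humanized TCPOBOP, humanized vehicle, wild-type TCPOBOP and wild-type vehicle livers. Wild-type TCPOBOP livers are the lowest group for 11 of the 12 genes by mean, and for Mttp, where their values run from 562 to 593 CPM, the highest.

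Abcg5 and Abcg8 encode the partner proteins of the sterol pump of the canalicular membrane and lie head to head on chromosome 17, with the 109 bases shown above between them. Both fell in wild-type liver. Abcg5 had 53.8, 52.0, 34.1 and 52.1 CPM in wild-type TCPOBOP livers, against 103, 166, 91.4 and 85.8 CPM in wild-type vehicle livers (NM_031884, chromosome 17, 84658174 to 84683011, minus strand). Abcg8 had 83.8, 97.2, 55.0 and 82.8 CPM in wild-type TCPOBOP livers, against 141, 246, 163 and 126 CPM in wild-type vehicle livers (NM_026180, chromosome 17, 84676302 to 84700333, plus strand). For neither gene did the wild-type groups overlap. The changes were -1.22 ± 0.25 (adjusted p = 0.0024) for Abcg5 and -1.08 ± 0.28 (adjusted p = 0.0131) for Abcg8, or 2.32-fold and 2.12-fold lower. The Abcg8 call was lost without wild-type TCPOBOP replicate 3, its lowest library (-0.94, adjusted p = 0.0572).

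In humanized mice Abcg5 had 132, 104, 158 and 112 CPM in humanized TCPOBOP livers, against 283, 148, 162 and 198 CPM in humanized vehicle livers. Abcg8 had 74.1, 127.5, 193 and 150.5 CPM in humanized TCPOBOP livers, against 230.3, 162, 134 and 187 CPM in humanized vehicle livers. The groups overlapped for both, with changes of -0.64 ± 0.24 (adjusted p = 0.17) and -0.39 ± 0.27 (adjusted p = 0.494). The differences between the strains' effects were 0.57 ± 0.34 (adjusted p = 0.364) for Abcg5 and 0.70 ± 0.39 (adjusted p = 0.321) for Abcg8, so a different response of the pair between strains was not shown. Under TCPOBOP humanized livers exceeded wild-type livers by 1.40 ± 0.25 (adjusted p = 0.000568) for Abcg5, without overlap, and by 0.78 ± 0.28 (adjusted p = 0.0472) for Abcg8, with overlap. The Abcg8 call is close to the threshold and was lost in 17 of the 27 alternatives, among them total-count scaling (0.64, adjusted p = 0.13). Under vehicle Abcg5 was higher in humanized livers by 0.83 ± 0.24 (adjusted p = 0.0312), and Abcg8 had a difference of 0.08 (adjusted p = 0.851). The Abcg5 call under vehicle was lost in 7 of 27 alternatives, 6 of them with 1 vehicle library of either strain left out, and was smallest without humanized replicate 1, its highest library (0.60, adjusted p = 0.124). The annotated spans of the 2 genes overlap at an alternative Abcg8 start, so reads there could be counted for either. Of the other genes of this role, Soat2, which esterifies hepatocyte cholesterol, had changes of -0.32 (adjusted p = 0.443) in humanized and -0.05 (adjusted p = 0.922) in wild-type livers. Nr1h3, the oxysterol receptor LXR alpha, had 0.12 (adjusted p = 0.826) and -0.08 (adjusted p = 0.866).

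Lrp1, a large endocytic receptor for remnants that bind apolipoprotein E, fell in wild-type liver (NM_008512, chromosome 10, 127538157 to 127621148, minus strand). Lrp1 had 1022, 1102, 805 and 615 CPM in wild-type TCPOBOP livers, against 1981, 2920, 1637 and 1067 CPM in wild-type vehicle livers. The groups overlapped through wild-type vehicle replicate 4 and TCPOBOP replicate 2, and the change was -1.10 ± 0.29 (adjusted p = 0.0164), or 2.15-fold lower. In humanized mice it had 904, 1283, 1798 and 2035 CPM in humanized TCPOBOP livers, against 931, 1117, 963 and 908 CPM in humanized vehicle livers. Here 3 of 4 TCPOBOP values lay above all vehicle values, and the change was 0.62 ± 0.29 (adjusted p = 0.271). The effects differed by 1.72 ± 0.41 (adjusted p = 0.0149), the largest interaction among the members by log2, and with length and GC trends removed by 1.48, adjusted p = 0.00459. Under vehicle, humanized livers were lower, at -0.96 ± 0.29 (adjusted p = 0.0348), and under TCPOBOP the strain difference was 0.76 ± 0.29 (adjusted p = 0.0619). With trends removed the vehicle difference was -0.68, adjusted p = 0.0377, and leaving out wild-type vehicle replicate 2, the highest, gave -0.68, adjusted p = 0.0845, 1 of 5 vehicle libraries without which that call was lost. The wild-type call was lost without wild-type TCPOBOP replicate 4 (-0.96, adjusted p = 0.0697) or replicate 3 (-1.06, adjusted p = 0.0575). Lrp1 has the longest transcript of the list, 14888 bases.

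Apoe, the ligand by which remnants are taken up, is the most abundant member per transcript length in each group. Apoe had 8827, 11810, 8386 and 7165 CPM in wild-type TCPOBOP livers, against 17290, 24080, 16830 and 16140 CPM in wild-type vehicle livers. The wild-type groups did not overlap, yet the change of -1.04 ± 0.35 (adjusted p = 0.0555) missed the threshold. With length and GC trends removed it was -0.99, adjusted p = 0.00433, and without humanized TCPOBOP replicate 1 it was -1.04, adjusted p = 0.00453. In humanized mice Apoe had 56670, 25700, 16330 and 14640 CPM in humanized TCPOBOP livers, against 29080, 22230, 30870 and 26280 CPM in humanized vehicle livers. The humanized TCPOBOP values spanned the vehicle values, with replicate 1 far above, and the change was 0.06 ± 0.34 (adjusted p = 0.954). Under TCPOBOP humanized livers were higher than wild-type livers by 1.65 ± 0.35 (adjusted p = 0.00257), without overlap, with trends removed by 1.30, adjusted p = 0.000375, and without the 2 libraries that stood apart by 1.09, adjusted p = 0.00294.

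Apoh, an apolipoprotein that binds phospholipid, had 1272, 1206, 1082 and 967 CPM in wild-type TCPOBOP livers, against 1857, 1987, 1742 and 1621 CPM in wild-type vehicle livers. There was no overlap, and the change was -0.67 ± 0.20 (adjusted p = 0.0324). That call was lost without wild-type TCPOBOP replicate 4 (-0.60, adjusted p = 0.113) and with no filter on low counts (-0.64, adjusted p = 0.0581), and in 6 of 27 alternatives in all. In humanized mice it had 3020, 2354, 1739 and 1520 CPM in humanized TCPOBOP livers, against 2377, 2552, 2518 and 2606 CPM in humanized vehicle livers, with overlap and a change of -0.22 ± 0.20 (adjusted p = 0.615). Apoh was higher in humanized than wild-type livers under TCPOBOP by 0.93 ± 0.20 (adjusted p = 0.00287), without overlap. Vldlr, the VLDL receptor, was near the limit of detection, with 5 to 8 counts in each humanized TCPOBOP library. Vldlr had 0.886, 0.698, 0.820 and 0.711 CPM in humanized TCPOBOP livers, against 2.74, 5.37, 1.87 and 3.32 CPM in wild-type TCPOBOP livers. The groups did not overlap, with a difference of -2.08 ± 0.58 (adjusted p = 0.0153), but at these counts the size is poorly fixed. Under vehicle it had 3.32, 1.16, 0.841 and 1.98 CPM in humanized vehicle livers, against 3.23, 6.85, 0.845 and 1.64 CPM in wild-type vehicle livers, with overlap and -0.75 (adjusted p = 0.325). Mylip, the ubiquitin ligase that degrades lipoprotein receptors, passed no test. Its strain difference was -0.75 (adjusted p = 0.194) under TCPOBOP and -1.15 (adjusted p = 0.067) under vehicle.

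Angptl4 encodes a secreted inhibitor of lipoprotein lipase, and Lipc encodes hepatic lipase; both fell in wild-type liver. Angptl4 had 54.6, 44.1, 22.1 and 25.8 CPM in wild-type TCPOBOP livers, against 61.9, 47.2, 117 and 101 CPM in wild-type vehicle livers (NM_020581, chromosome 17, 33774900 to 33781575, minus strand). The groups overlapped only through wild-type TCPOBOP replicate 1 and vehicle replicate 2, and the change was -1.16 ± 0.34 (adjusted p = 0.0299), or 2.23-fold lower. The call was lost without wild-type vehicle replicate 3, its highest library (-0.93, adjusted p = 0.111), without vehicle replicate 4 (-1.04, adjusted p = 0.0797), or without TCPOBOP replicate 3 or 4, with the 2 compared groups only (-1.17, adjusted p = 0.0564) and with replicate number as a block (-1.14, adjusted p = 0.0534). In humanized mice Angptl4 had 104, 136, 113 and 58.7 CPM in humanized TCPOBOP livers, against 70.9, 64.5, 129 and 85.7 CPM in humanized vehicle livers, with overlap and a change of 0.24 ± 0.34 (adjusted p = 0.776). The difference between effects, 1.39 ± 0.48 (adjusted p = 0.0871), missed the threshold. Angptl4 was higher in humanized than wild-type livers under TCPOBOP by 1.49 ± 0.34 (adjusted p = 0.00449), without overlap.

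Lipc had 79.6, 75.9, 70.5 and 62.2 CPM in wild-type TCPOBOP livers, against 114, 80.6, 143 and 137.5 CPM in wild-type vehicle livers (NM_008280, chromosome 9, 70798128 to 70952221, minus strand). TCPOBOP and vehicle values did not overlap, and the log2 change of Lipc was -0.72 ± 0.20 (adjusted p = 0.0193). It lost the call with total-count scaling and without wild-type vehicle replicate 3 or 4 or TCPOBOP replicate 3 or 4, as without vehicle replicate 3 (-0.62, adjusted p = 0.0745). In humanized mice Lipc had 93.0, 173, 130.1 and 119.6 CPM in humanized TCPOBOP livers, against 111, 113, 117 and 107 CPM in humanized vehicle livers. The vehicle values lay inside the TCPOBOP range, with a change of 0.20 ± 0.20 (adjusted p = 0.64). The effects differed by 0.92 ± 0.28 (adjusted p = 0.0493), at the edge of the threshold, and this call was lost in 19 of the 26 alternatives, for example with total-count scaling (0.73, adjusted p = 0.15). With length and GC trends removed the difference was 0.98, adjusted p = 0.0197. Under TCPOBOP Lipc was higher in humanized livers by 0.84 ± 0.20 (adjusted p = 0.00504), without overlap.

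Lpl, lipoprotein lipase itself, and Angptl8, an insulin-responsive secreted protein, passed no test. Lpl averaged 18.2 ± 5.83 CPM in humanized TCPOBOP and 30.5 ± 10.6 CPM in humanized vehicle livers, and 30.8 ± 9.94 CPM in wild-type TCPOBOP and 35.7 ± 15.6 CPM in wild-type vehicle livers (SD, n = 4). Angptl8 had a change of 0.47 (adjusted p = 0.508) in humanized and 0.85 (adjusted p = 0.119) in wild-type livers. Angptl8 lies antisense inside Dock6, so its counts may hold reads of that gene if strand was not used.

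The exchangeable apolipoproteins sit in 2 gene clusters. On chromosome 9, Apoa1, Apoc3, Apoa4 and Apoa5 lie between positions 46228630 and 46271921. Apoa5, an activator of lipolysis, had 617, 1205, 602 and 469.6 CPM in wild-type TCPOBOP livers, against 1050, 1774, 1364 and 1276 CPM in wild-type vehicle livers. The groups overlapped through wild-type TCPOBOP replicate 2 and vehicle replicate 1, and the change was -0.92 ± 0.26 (adjusted p = 0.027). In humanized mice Apoa5 had 1656, 1710, 1336 and 1050 CPM in humanized TCPOBOP livers, against 1269, 1560, 1638 and 1266 CPM in humanized vehicle livers, with overlap and a change of 0.01 ± 0.26 (adjusted p = 0.997). The strain difference under TCPOBOP was 0.99 ± 0.26 (adjusted p = 0.0117), higher in humanized livers, with overlap through humanized replicate 4 and wild-type replicate 2. The wild-type call was lost without wild-type TCPOBOP replicate 1, 3 or 4 or vehicle replicate 2 or 3, with -0.76, adjusted p = 0.105 without TCPOBOP replicate 4. Its neighbours Apoa1, Apoc3 and Apoa4 had wild-type changes of -0.12, -0.51 and 0.02, none of which passed. Apoc3, an inhibitor of lipolysis and remnant uptake, was higher in humanized than wild-type livers under TCPOBOP by 1.36 ± 0.37 (adjusted p = 0.0134). It averaged 2245 ± 1764 CPM in humanized TCPOBOP and 873 ± 221 CPM in wild-type TCPOBOP livers (SD, n = 4). That call was lost without humanized TCPOBOP replicate 1, its highest library (0.69, adjusted p = 0.0636). With trends removed it was 0.78, adjusted p = 0.00901, and without the 2 libraries that stood apart 0.71, adjusted p = 0.0432.

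On chromosome 7, Apoc2, Apoc4, Apoc1 and Apoe lie between 19671579 and 19701310, all on the minus strand. Apoc2, the cofactor of lipoprotein lipase, had 70.1, 86.1, 68.7 and 59.2 CPM in wild-type TCPOBOP livers, against 106, 248, 93.0 and 88.6 CPM in wild-type vehicle livers. All TCPOBOP values lay below all vehicle values, and the log2 change of Apoc2 was -0.91 ± 0.29 (adjusted p = 0.0417). Without wild-type vehicle replicate 2, which held more than any other library, the change was -0.43, adjusted p = 0.157, and the call was lost in 10 of 27 alternatives. In humanized mice Apoc2 had 166, 188, 105 and 105 CPM in humanized TCPOBOP livers, against 201, 168, 167 and 174 CPM in humanized vehicle livers, with overlap and a change of -0.33 ± 0.29 (adjusted p = 0.588). With TCPOBOP given to both strains, Apoc2 was higher in humanized livers by 0.99 ± 0.29 (adjusted p = 0.0187), without overlap. That difference with trends removed was 0.61, adjusted p = 0.0114, and the call was lost without humanized TCPOBOP replicate 2 (0.83, adjusted p = 0.0615) or wild-type TCPOBOP replicate 3 (0.97, adjusted p = 0.0502) or 4 (0.91, adjusted p = 0.0643).

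Apoc1, an inhibitor of remnant uptake, had the largest strain difference under vehicle among the higher members (NM_007469, chromosome 7, 19689480 to 19692659, minus strand). Apoc1 had 4070, 2605, 3559 and 3428 CPM in humanized vehicle livers, against 1361, 778, 1535 and 1601 CPM in wild-type vehicle livers. The groups did not overlap, and the difference was 1.37 ± 0.28 (adjusted p = 0.00727), or 2.59-fold higher. With length and GC trends removed it was 0.74, adjusted p = 0.0526, so the call did not hold there. Under TCPOBOP Apoc1 had 3342, 3256, 1614 and 1618 CPM in humanized TCPOBOP livers, against 921, 866, 807 and 637 CPM in wild-type TCPOBOP livers, without overlap, and a difference of 1.61 ± 0.28 (adjusted p = 0.000537), or 1.16, adjusted p = 0.00316 with trends removed. Apoc1 changes with TCPOBOP were -0.48 (adjusted p = 0.393) in humanized and -0.71 (adjusted p = 0.109) in wild-type livers. Apoc4, a minor apolipoprotein, had 2190, 931, 472 and 391 CPM in humanized TCPOBOP livers, against 304.5, 432, 274 and 251.5 CPM in wild-type TCPOBOP livers. The difference of 1.66 ± 0.40 (adjusted p = 0.00645) came with overlap and with humanized replicate 1 far above the rest. With trends removed it was 0.96, adjusted p = 0.00107, and without the 2 libraries that stood apart 0.95, adjusted p = 0.0104. Under vehicle Apoc4 had 950.1, 652, 925 and 838 CPM in humanized vehicle livers, against 429, 721, 458 and 488 CPM in wild-type vehicle livers, with overlap and 0.68 (adjusted p = 0.225). The Apoc2 and Apoc4 spans overlap that of a predicted gene on the same strand, Gm44805. Reads of a joint transcript could thus be counted for either. Gm44805 was higher in humanized than wild-type livers under TCPOBOP (1.29, adjusted p = 0.00975). Under vehicle the difference was 0.43 (adjusted p = 0.362). Gm44805 changes with TCPOBOP were -0.82 (adjusted p = 0.12) in wild-type and 0.04 (adjusted p = 0.975) in humanized livers. It averaged 408.9 ± 234.5 CPM in humanized TCPOBOP and 167.2 ± 38.5 CPM in wild-type TCPOBOP livers (SD). The part of shared reads in the Apoc2 and Apoc4 values was not tested.

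**Figure D3:**
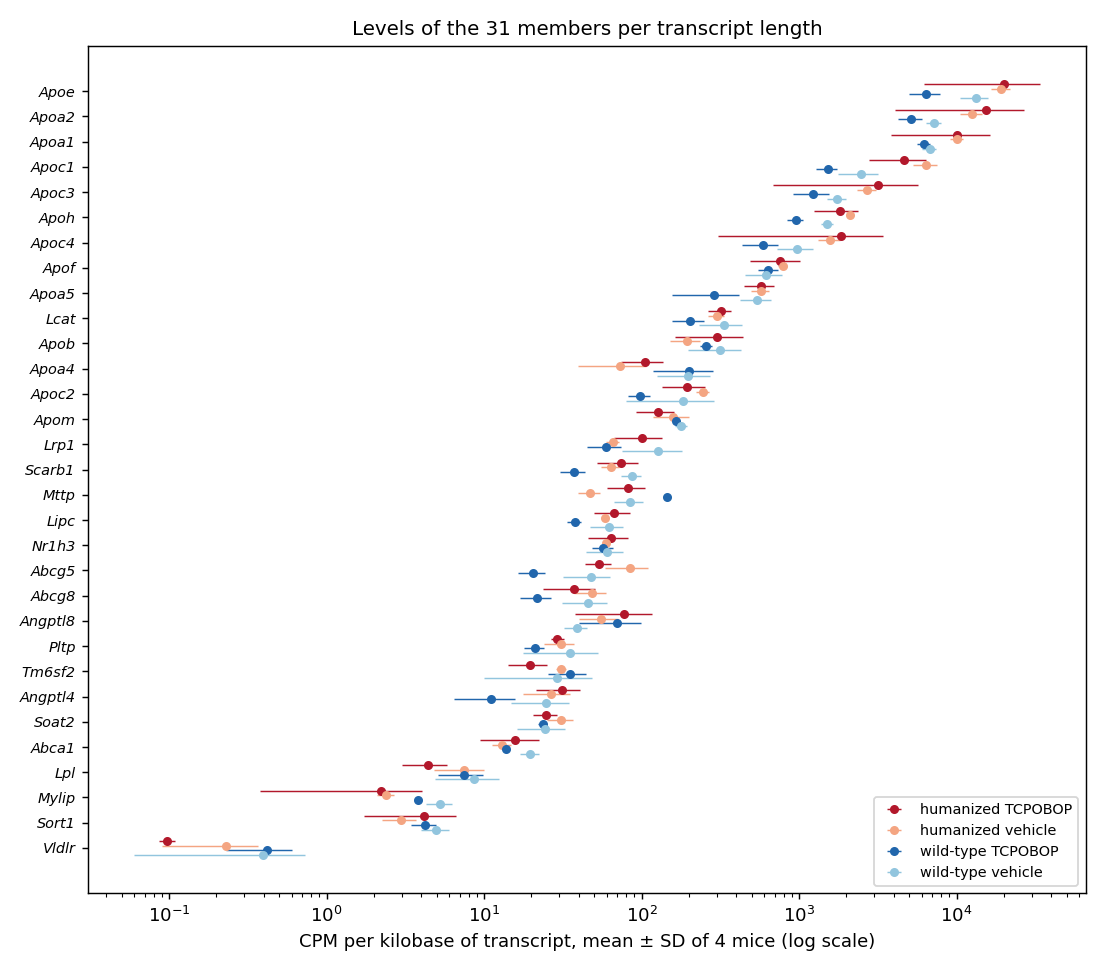
Mean level ± SD of 4 mice in CPM per kilobase of transcript (log axis) for the 31 members, ordered by wild-type vehicle, with humanized TCPOBOP, humanized vehicle, wild-type TCPOBOP and wild-type vehicle groups in each row. Apoe is at the top in every group, with 6425 in wild-type TCPOBOP livers, and Vldlr at the bottom, with 0.0977 in humanized TCPOBOP livers.

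Per kilobase of transcript, the members covered a wide range of levels. Apoe stood at 20120 ± 13860 CPM per kilobase in humanized TCPOBOP, 19260 ± 2675 in humanized vehicle, 6425 ± 1400 in wild-type TCPOBOP and 13200 ± 2625 in wild-type vehicle livers (SD, n = 4). Apoa2 and Apoa1 followed, and in wild-type vehicle livers stood at 7180 ± 739 and 6742 ± 706, a pair closer together than their SDs. Apob was at 313 ± 115 and Mttp at 84.8 ± 17.6 CPM per kilobase in wild-type vehicle livers. Abcg5 and Abcg8 were close in level in those livers, at 47.5 ± 15.8 and 46.0 ± 14.6, and in wild-type TCPOBOP livers, at 20.4 ± 3.95 and 21.7 ± 4.83. In humanized livers Abcg5 averaged higher, at 84.1 ± 25.9 against 48.7 ± 11.2 under vehicle and 53.8 ± 10.2 against 37.2 ± 13.5 under TCPOBOP. The least abundant members in wild-type vehicle livers were Mylip, at 5.26 ± 0.976, Sort1, at 4.97 ± 1.00, and Vldlr, at 0.394 ± 0.334. The summed level of the 31 members ran from 39370 to 113300 CPM in humanized TCPOBOP, 53940 to 65230 in humanized vehicle, 25440 to 35230 in wild-type TCPOBOP and 42590 to 51890 in wild-type vehicle livers. The wild-type groups did not overlap on this sum, which Apoe dominates.

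Strain differences of the members followed transcript length. Across the 31 members, Spearman's rho between the log2 difference, humanized minus wild-type, and transcript length was -0.42 under TCPOBOP and -0.75 under vehicle. Over 12064 genes it was -0.22 and -0.35. The members share the 16 libraries, and this is a description with no test. For the TCPOBOP effects rho across members was 0.15 in humanized and -0.08 in wild-type livers. With the trends removed, the members called were 1 for TCPOBOP in humanized and 17 in wild-type livers, 7 for the interaction, 19 for the strains under TCPOBOP and 4 under vehicle. The shares of all genes called there were 6.02%, 18.9%, 13.3%, 31.9% and 19.8%. Without the 2 libraries that stood apart the members called were 4, 12, 9, 19 and 18 in the same order, and 16.4%, 23.4%, 24.1%, 28.8% and 34.6% of all genes were called. Under TCPOBOP all 16 called strain differences kept their direction and call with trends removed.

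**Figure D4:**
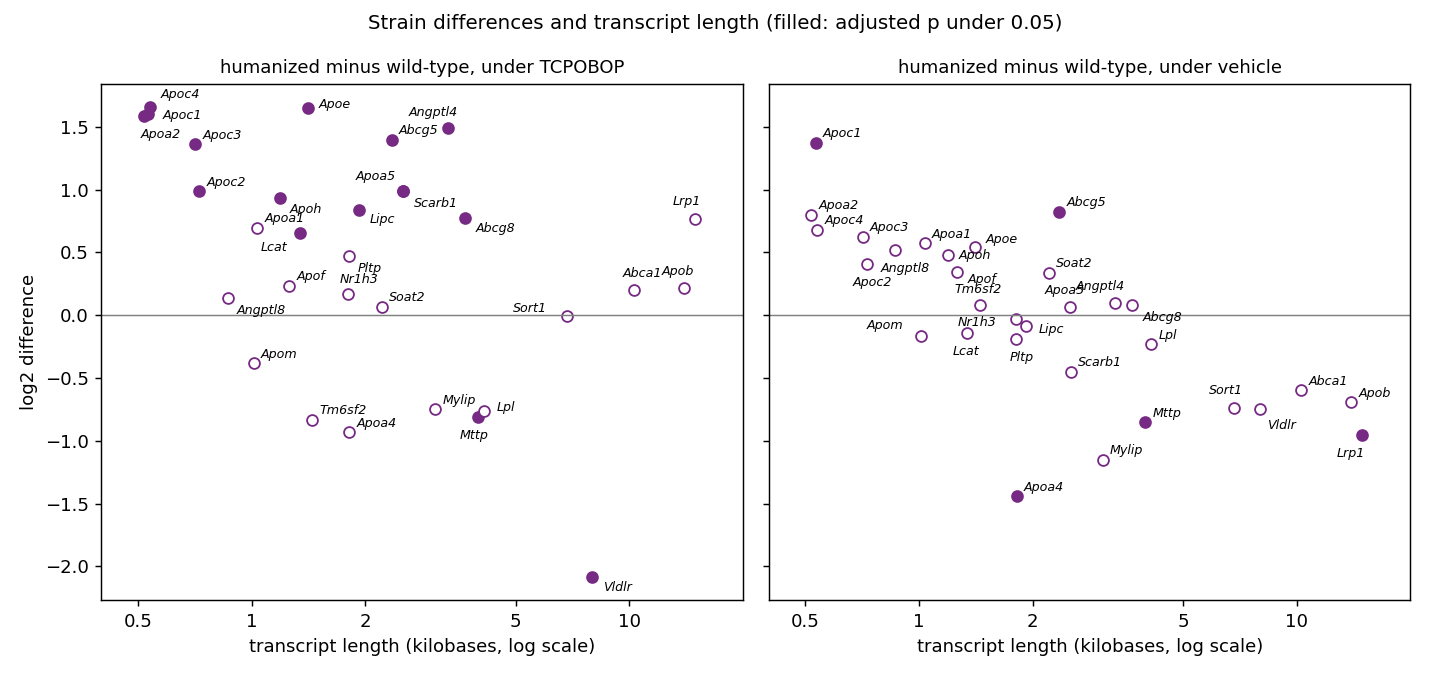
Log2 difference, humanized minus wild-type, against transcript length in kilobases (log axis) for the 31 members, under TCPOBOP (left) and under vehicle (right). Filled points passed the test: 16 under TCPOBOP and 5 under vehicle, where rho was -0.75 and short apolipoprotein transcripts lie high and the long Lrp1 lies low.

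Markers of liver cell types moved beside these results. In wild-type liver TCPOBOP lowered 5 of 10 hepatocyte markers, among them albumin (Alb, -1.56, adjusted p = 0.000271), Trf (-1.23, adjusted p = 0.00127), Ass1 (-1.22, adjusted p = 0.0038) and Arg1 (-0.95, adjusted p = 0.00395). The summed level of the 10 was 36020 to 60070 CPM in wild-type TCPOBOP and 90440 to 140500 CPM in wild-type vehicle livers. In humanized liver none of the 10 passed, and 2 had an unadjusted p under 0.05. Under TCPOBOP 6 of 10 hepatocyte markers were higher in humanized than wild-type livers, and 3 of 9 sinusoidal endothelial and 3 of 9 stellate markers were lower. The endothelial markers then summed to 106 to 325 CPM in humanized TCPOBOP and 337 to 422 CPM in wild-type TCPOBOP livers, without overlap, and the stellate markers to 74.8 to 216 CPM in humanized TCPOBOP and 208 to 304 CPM in wild-type TCPOBOP livers. None of 12 Kupffer cell and macrophage markers passed there, and 2 had an unadjusted p under 0.05. Under vehicle 8 of 12 Kupffer cell and macrophage markers were lower in humanized livers, with a summed level of 287 to 524 CPM in humanized vehicle and 581 to 1231 CPM in wild-type vehicle livers. Sinusoidal endothelial markers summed to 204 to 240 CPM in humanized vehicle and 358 to 638 CPM in wild-type vehicle livers, with 3 of 9 lower, and 2 of 9 stellate markers were lower. In bulk tissue, fewer cells of a type and less RNA per cell cannot be told apart. The part of these markers in the results was not tested.

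Other genes of lipoprotein handling were described from 5 lists. Among 14 genes of VLDL assembly and secretion, Sar1b, the GTPase that forms the carriers of large lipoproteins, rose in wild-type liver (0.87, adjusted p = 0.0048), and none passed in humanized liver, where 3 had an unadjusted p under 0.05. Among 18 genes of remnant uptake and lipolysis, 1 rose and 1 fell in wild-type liver, and 1 rose in humanized liver. The gene called in humanized liver was endothelial lipase, Lipg (1.75, adjusted p = 0.04), which was at 1.04, adjusted p = 0.1 in wild-type liver. Humanized livers had 1 of the 18 higher and 4 lower than wild-type livers under vehicle, and 1 higher and 3 lower under TCPOBOP.

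Of 17 tested genes of intracellular sterol movement, none passed for TCPOBOP in either strain, although 6 in humanized and 4 in wild-type liver had an unadjusted p under 0.05. Under vehicle 5 were lower in humanized livers, among them Stard4, a sterol carrier (-1.06, adjusted p = 0.0163), and Npc1, which releases lysosomal cholesterol (-0.95, adjusted p = 0.0197). Of 12 tested genes for other HDL-bound proteins, Clu rose (0.89, adjusted p = 0.0136) and Apol7a fell (-1.22, adjusted p = 0.000301) in wild-type liver, and none passed in humanized liver. Under TCPOBOP 6 of the 12 were higher in humanized livers, including the acute-phase genes Saa1 (2.67, adjusted p = 0.00211) and Saa2 (2.75, adjusted p = 0.00451), near-identical copies whose reads may be shared.

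Among 18 regulators, 3 fell in wild-type liver and none passed in humanized liver. They were Ppara, the fatty-acid receptor (-1.21, adjusted p = 0.0111), its coactivator Ppargc1a (-1.12, adjusted p = 0.0227) and Scap, the sterol sensor of the SREBP pathway (-0.83, adjusted p = 0.0225). The effect on Ppara differed between strains (2.32, adjusted p = 0.00262). Fasting and insulin genes also moved: in wild-type liver 4 of 13 fell, among them Pck1, of gluconeogenesis (-1.96, adjusted p = 0.000164), and in humanized liver 1 rose and 1, the salt-inducible kinase Sik1, fell (-1.96, adjusted p = 0.00496). Of 17 clock genes, 6 rose and 2 fell with TCPOBOP in humanized liver, with Dbp at 4.01, adjusted p = 0.00132, and 1 fell in wild-type liver. Under vehicle 4 clock genes were higher and 5 lower in humanized livers. The part of feeding state and time of day in the members' values was not tested.

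Of the 31 members, 13 passed in none of the 5 comparisons: Apoa1, Apob, Apof, Apom, Pltp, Abca1, Angptl8, Lpl, Sort1, Soat2, Nr1h3, Mylip and Tm6sf2. Their log2 values ran from -0.75 to 0.64 for TCPOBOP in humanized and from -0.74 to 0.85 in wild-type livers. The interaction ran from -0.91 to 0.91. Between strains they ran from -0.83 to 0.70 under TCPOBOP and from -1.15 to 0.57 under vehicle. A p that misses the threshold does not show these genes to be the same in both groups. Some of the 13 were called in alternative fits, as given below for Tm6sf2, Mylip and Abca1.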

How the data were processed

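Counts per RefSeq transcript accession were deposited by the authors, who used STAR and DESeq2 with the mm10 genome per the submitters' processing notes. The counting program, annotation release, strandedness and treatment of multi-mapped reads: not given in the sources used here. Of counts of 20 or more, 74.9% were even, where halved counts rounded to even would give 75%, so the deposited counts may be halved. Accessions joined to 24970 genes, and each gene took the accession with the highest mean count; 14 members have several.

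All 16 libraries were fitted in edgeR 4.0.16 (limma 3.58.1, R 4.3.3) with 4 group means, filterByExpr, TMM scaling and quasi-likelihood F tests, two-sided, with Benjamini-Hochberg adjustment over 12913 genes. All 31 members passed the filter. The residual degrees of freedom were 12 and the common biological coefficient of variation was 0.259. CPM are TMM-scaled, and transcript lengths are from the annotation. The fit was tested on simulated data. The labels give 4 per group, taken here as 4 mice. They do not say whether same-numbered mice were paired or how cages and litters were shared. The p-values set group differences against the spread between these samples, which may be technical.

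Every member is accounted for. Values in each library are given for members called in 2 or more comparisons and for the 5 largest called changes of each comparison, and other lists name up to 4 called genes with the smallest p. The members and lists were chosen with earlier results of these data known. Some genes of the other lists are not reported here. Alternatives were other scaling factors, DESeq2 1.42.0, no filter, summed accessions, thinned depth, a replicate block, 2 groups only, each library left out, and, added after seeing the data, trends removed and 2 libraries left out.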

Additional observations from a re-analysis of the deposited data

Results flagged for a closer look

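Single libraries stood far from the other 3 of their group in 6 of 124 groups of 4 examined. A chance rate of about 1 in 20 groups would give 6.2 of 124. The groups share the 16 libraries and are not independent, so this number does not settle the cause, which was not tested. Apoa1 was at 11890 CPM in humanized vehicle replicate 4 and at 7310 CPM in wild-type TCPOBOP replicate 2, both above their group. Abcg5 was at 34.15 CPM in wild-type TCPOBOP replicate 3, below its group. Wild-type vehicle replicate 2, the library with a GC correlation of 0.58, was above its group for Apoc2 (247.6 CPM), Apoe (24080 CPM) and Nr1h3 (151.7 CPM). The effect of TCPOBOP differed between humanized and wild-type livers by 1.44 on the log2 scale for Scarb1, by 1.72 for Lrp1 and by 0.92 for Lipc. The Lipc call was lost in 19 of 26 alternatives.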

How the results depend on the processing

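Over 969 alternative values of the 36 called member and comparison pairs, 851 kept direction and call, 118 lost the call and 0 changed direction, and 17 pairs kept the call in every alternative run. Those numbers leave out pairs that gained a call. Among others, Apoa4 (-1.01, adjusted p = 0.0178), Lrp1 (0.81, adjusted p = 0.00981) and Tm6sf2 (-0.92, adjusted p = 0.00828) gained one between strains under TCPOBOP with trends removed. Under vehicle, Mylip (-1.17, adjusted p = 0.00374) and Abca1 (-0.61, adjusted p = 0.0242) gained one with the 2 compared groups only. For TCPOBOP in wild-type liver, 11 members were called as reported, 17 with length and GC trends removed, and 3 to 13 with 1 library left out. In humanized liver, where 1 was called, 0 were called with total counts, with upper-quartile factors, with the replicate block or with the 2 compared groups only, 4 without the 2 libraries that stood apart, and 0 to 1 with 1 library left out. The interaction had 3 called members, 7 with trends removed, 9 without the 2 libraries, and 2 to 5 with 1 library left out. Under vehicle 5 members differed between strains, against 11 with 2 groups only, 18 without the 2 libraries, and 1 to 11 with 1 library left out. Of all genes, 16.1% were called as reported, 21.3% with 2 groups only and 34.6% without the 2 libraries. Under TCPOBOP, 16 differed, and 13 to 20 with 1 library left out. The share of all genes called also varied with 1 library left out. It ran from 8.19% to 16.8% for TCPOBOP in wild-type liver and from 0.567% to 7.37% in humanized liver. For the interaction it ran from 4.41% to 13.7%. Between strains it ran from 4.72% to 26.2% under vehicle and from 15.1% to 31.9% under TCPOBOP. Same-numbered libraries did not pair throughout: 24 such pairs had correlations of -0.244 to 0.581 with a median of 0.002, and 72 pairs of different number had -0.426 to 0.313 with a median of 0.004, so the highest value was of a same-numbered pair. Beside the 0 above, the replicate block gave 11 called members in wild-type liver, 2 in the interaction, and 5 under vehicle and 16 under TCPOBOP between strains. In that order these were 35.5%, 6.45%, 16.1% and 51.6% of the members, against 13.1%, 6.7%, 15.7% and 24.2% of all genes. For the interaction and under vehicle the members' share was near that of all genes. Of the members called with the block, 10, 2, 5 and 15 were called without the block: in wild-type liver Angptl4 was lost and Apoe gained, in the interaction Lipc was lost, and between strains under TCPOBOP Abcg8 was lost and Tm6sf2 gained. Scaling by total counts moved the median of all genes by over 0.1 for TCPOBOP in humanized liver (-0.11), the interaction (-0.22) and the strains under TCPOBOP (-0.17). The cause of these differences was not tested. With 4 libraries a group, changes of low members such as Vldlr, at 5 to 8 counts, are limited by depth.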
